A study of Homo sapiens with 25 samples.

Results

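The 37 genes described here encode parts of the autophagy and lysosome machinery, and their transcripts were followed in Jurkat, a leukaemia line of human T cells, grown with less and less histidine. They were taken from a list of gene names and kept where the normalized value was at least 10 in 2 or more libraries. All 37 were in the table of 36755 genes and all 37 were among the 22994 genes tested. MITF passed in 3 libraries with values above 10, and the lowest value of the other 36 members in any library was 75.8, of WIPI1. Cells were kept in medium with 100%, 50%, 25%, 12.5% or 0% of the histidine level and harvested for RNA sequencing on day 3 or day 6. On day 3 there were 2 libraries at 100% (replicates 1 and 3) and 3 at each of 50%, 25%, 12.5% and 0%. On day 6 there were 3 libraries at each of 100%, 50% and 25%, and 2 at 12.5% (replicates 1 and 2). All groups share the cell line, and the labels name no other agent or genetic change. Whether replicates were grown separately is not in the labels, so each p-value reflects the spread among the sequenced libraries alone, which could be technical.

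Autophagy encloses cytoplasm in a double membrane, the autophagosome, which fuses with the lysosome, where acid hydrolases break its contents down and free amino acids. The ULK1 kinase complex and the BECN1 lipid kinase complex start the membrane, and WIPI, ATG2 and ATG9 proteins extend it. A ubiquitin-like conjugation system attaches ATG8 proteins (the LC3 and GABARAP families) to it, where they are bound by cargo receptors. Supply of amino acids is sensed at the lysosomal surface by mTORC1, and the MiT/TFE transcription factors TFEB, TFE3 and MITF are known to bind lysosomal and autophagy genes when mTORC1 is inactive.

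Values are normalized counts, which sum to between 18.44 and 21.38 mega-counts in a library (median 19.86), so a value is relative to the other transcripts of its library. In bulk samples fewer cells of a type and less RNA per cell cannot be told apart. All 14 T-cell markers were tested, and their summed value lay between 61050 and 109700, with 64930 and 70870 at 100% on day 3 and 103400 to 109700 at 0%. At 0%, 8 of the 14 were called higher and 2 lower (median log2 difference 0.48). The share higher at 0% was 57.1% of these markers and 54.1% of the 37 members. Of all genes tested 14.8% were higher and 16.1% lower there, and of those with a mean of at least 100, 24.8% and 25.3%. At 12.5%, 5 markers were higher and 4 lower on day 3 (median 0.05, with 14.2% and 12% of all genes). On day 6 it was 5 higher and 5 lower (median 0.03, with 10.8% and 11.1% of all genes). Myeloid markers, of cells rich in lysosomes (12 of 14 tested), summed to 864.2 to 1460 over the 25 libraries. They summed to 1120 to 1317 at 100% on day 3 and 1045 to 1346 at 0%. MPO was at 0 in all 3 libraries at 0% and CSF1R and MPO at 0 in both libraries at 100%. Fibroblast and matrix markers summed to 3685 to 15420 and erythroid markers to 199 to 5052, and both ranges were wide among replicates of 1 group. Heart and skeletal muscle markers summed to at most 676.6 in 24 libraries and to 41550 in replicate 2 of 25% on day 6. That library, replicate 3 of 100% and replicate 3 of 50% on day 6 lay apart from the rest on the principal components. The 2 libraries at 100% on day 3, to which the other day 3 groups are compared, also differed on the second component (scores of 15.3 and 57.1, with 41.9 to 58 for the 3 at 50%), and the 3 at 0% were highest on the third (43 to 66.1). The part of these markers in the results was not tested.

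At 0% histidine on day 3, 20 of the 37 members were higher and 2 were lower than at 100%, with a median log2 difference of 0.3 over the members. A difference was called where limma's test of log2(value + 1) gave a Benjamini-Hochberg adjusted p under 0.05 over all genes tested. Of all genes tested 14.8% were called higher and 16.1% lower, and their median log2 difference lay between -0.04 and 0.02 in all 16 comparisons of the design. A mean of at least 100 was reached by 36 of the members and by 11567 of the genes tested. Of those 11567 genes 24.8% were higher and 25.3% lower, the nearer comparison for the 54.1% and 5.41% of the members. The members were chosen with earlier results of these data known. An excess over such shares, here and below, is therefore not independent of that choice. At 12.5% on day 3 the count was 14 higher and 3 lower (median 0.24), where 14.2% of all genes were higher and 12% lower, and 25.3% and 19% of those with a mean of at least 100. At 25% it was 9 higher and 4 lower (median -0.01), against 9.81% and 9.72% of all genes and 17.1% and 17.3% of those with a mean of at least 100. With each library rescaled to the same total the split at 25% was 12 higher and 2 lower, where 13.3% and 7.69% of all genes were. Without replicate 1 of 100% the split was 8 and 2 at 25%, 10 and 2 at 12.5% and 17 and 0 at 0%, and without replicate 3 of 100% it was 8 and 1, 14 and 2, and 15 and 2. At 50% no member was called, and 0% of all genes were higher and 0% lower.

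On day 6, 15 members were higher and 1 was lower at 12.5% histidine (median log2 difference 0.24), where 10.8% of all genes tested were higher and 11.1% lower. Among genes with a mean of at least 100 these shares were 19.6% and 18.4%, and among the members 40.5% and 2.7%. At 25% on day 6, 11 members were higher and 0 lower (median 0.1), against 11% and 9.24% of all genes and 20.3% and 15.1% of those with a mean of at least 100. The count of 11 was 5 when the 3 libraries that lay apart were omitted and 7 with the library number (its order in the labels, no stated batch) modulo 8 as a factor, and with quantile normalization it was 8 higher and 1 lower. At 50% on day 6 no member was called, and 0% of all genes were higher and 0.00435% lower. All fold changes refer to log2(value + 1), where the added 1 is small beside the values of every member except MITF. Day 6 at 0% histidine was not analysed here.

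**Figure D1:**
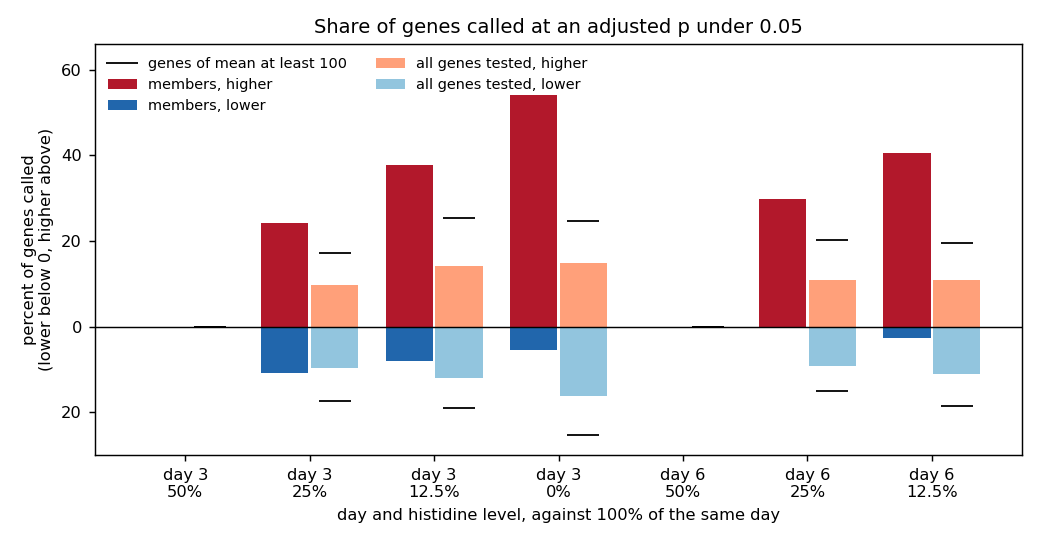
Percent of genes called higher (above the zero line) or lower (below it) than at 100% histidine of the same day, for the 37 members, for all 22994 genes tested and, as black ticks, for the 11567 genes with a mean of at least 100. The red bars grow from 24.3% at 25% to 54.1% at 0% on day 3, while the members' bars for lower calls stay at 10.8% or less.

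**Figure D2:**
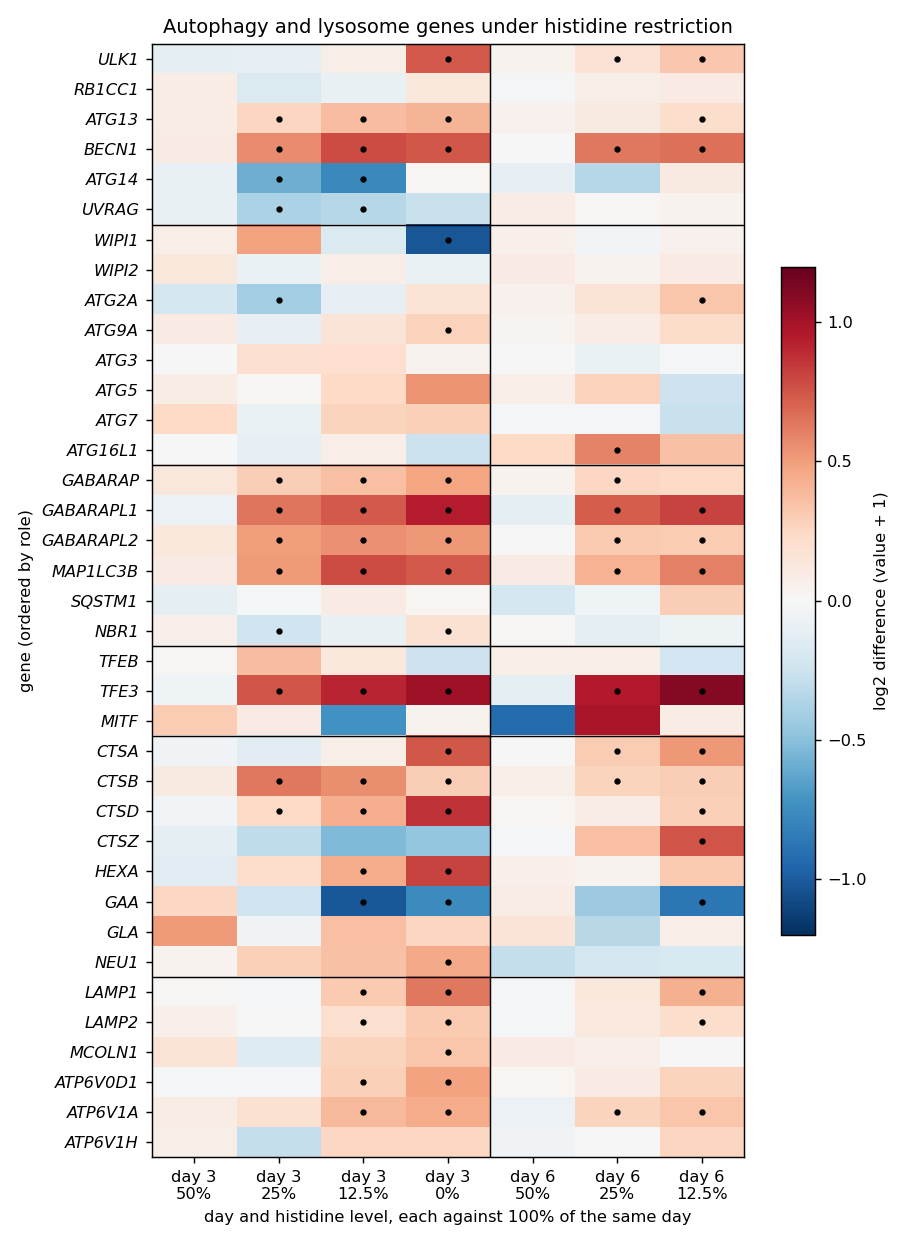
Log2 difference of each member from 100% histidine of the same day, ordered by role, with a dot where the difference was called. The 50% columns hold no dot, and the dots at 25%, 12.5% and 0% lie mainly on higher values of BECN1, the ATG8 family, TFE3, cathepsins and lysosomal membrane genes.

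Among the 6 genes of initiation and nucleation, 3 were higher at 0% on day 3 (ULK1, ATG13 and BECN1) and the same 3 were higher at 12.5% on day 6, with none lower. At 0% on day 3, 24.8% of genes with a mean of at least 100 were higher and 25.3% lower. At 12.5% on day 6 these shares were 19.6% and 18.4%. BECN1 is the scaffold of the lipid kinase complex that marks the forming membrane (GRCh38, GENCODE 29, chromosome 17, 42810134 to 42833350). On day 3 BECN1 measured 1956 and 1902 at 100%, then 2191, 2048 and 1960.3 at 50%, then 2824, 2886 and 2869 at 25%, then 3432, 3241 and 3318 at 12.5%, then 3255, 3159 and 3303 at 0%. On day 6 this gene measured 1970.0, 1907 and 1756 at 100%, then 1985, 1865 and 1810.0 at 50%, then 2974, 2974 and 2780.2 at 25%, then 2851 and 3093 at 12.5%. Every library at 25% histidine or less was above every library at 50% or 100%, on both days. BECN1 was 1.48-fold higher at 25% on day 3 (log2 0.57, SE 0.066, adjusted p = 3.83e-07) and 1.73-fold higher at 12.5% (log2 0.79, SE 0.066, adjusted p = 9.14e-10). At 0% the rise was 1.68-fold (log2 0.75, SE 0.066, adjusted p = 1.18e-09). On day 6 it was 1.55-fold at 25% (log2 0.63, SE 0.059, adjusted p = 9.68e-09) and 1.58-fold at 12.5% (log2 0.66, SE 0.066, adjusted p = 2.71e-08).

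ULK1, the kinase that starts autophagosome formation (chromosome 12, 131894651 to 131923167), had another profile. Its day 3 values were 3147 and 3089.5 at 100%, then 2741, 3073 and 2891 at 50%, then 2858, 2953 and 2905 at 25%, then 3271, 3136 and 3401 at 12.5%, then 5468, 5051 and 5055 at 0%. Its day 6 values were 2805, 2679 and 2818 at 100%, then 3038, 2730.5 and 2793 at 50%, then 3111, 3233 and 2995 at 25%, then 3388 and 3534 at 12.5%. The 3 libraries at 0% stood above all others, while those at 25% lay below both libraries at 100%, and on day 6 the libraries at 12.5% were above those at 100% and 50%. ULK1 was 1.66-fold higher at 0% on day 3 (log2 0.73, SE 0.064, adjusted p = 8.01e-10), with log2 differences of -0.10 at 25% and 0.07 at 12.5% that were not called. On day 6 it was 1.25-fold higher at 12.5% (log2 0.32, SE 0.064, adjusted p = 0.000419). At 25% on day 6 it was called at 0.17 (adjusted p = 0.0353). This call ended when any 1 of the 3 libraries at 100% or replicate 1 or 2 at 25% was left out (log2 0.15 without replicate 2 of 100%, adjusted p = 0.13).

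ATG13, an adaptor of the ULK1 complex, rose by log2 0.25, 0.37 and 0.40 at 25%, 12.5% and 0% on day 3 (adjusted p from 9.94e-06 to 0.00386) and by 0.21 at 12.5% on day 6. RB1CC1, the large scaffold of that complex, lay between 1710.1 and 2451 over the 25 libraries and was not called against 100% at any level. ATG14, which directs the BECN1 complex to autophagosome formation, fell on day 3 at 25% (log2 -0.59, SE 0.17, adjusted p = 0.0123) and 12.5% (log2 -0.77, SE 0.17, adjusted p = 0.000781). At 0% ATG14 was not called, 469 ± 26.1 (SD, n = 3) against 464 ± 79.4 (SD, n = 2). Its call at 25% ended without replicate 3 of 100% (log2 -0.41, adjusted p = 0.24) and without replicate 3 of 25% (-0.52, adjusted p = 0.0546). UVRAG, a subunit of the BECN1 complex that acts in maturation, fell at 25% (log2 -0.38) and 12.5% (-0.35) on day 3. Both UVRAG calls ended when either library at 100% was left out (adjusted p between 0.0529 and 0.122), and also without replicate 3 of the restricted level (adjusted p = 0.0904 and 0.0902). The ATG13 call on day 6 ended without replicate 3 of 100% (0.18, adjusted p = 0.0665), without replicate 2 of 100% (0.18, adjusted p = 0.0634), or without either library at 12.5% (0.2 and 0.22, adjusted p = 0.119 and 0.0757).

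Of the 8 genes of membrane extension and conjugation, 1 was higher and 1 lower at 0% on day 3, and 1 was higher at 12.5% on day 6. Each count is 12.5% of the 8 genes, not above the share of genes with a mean of at least 100. That share was 24.8% higher and 25.3% lower at 0% on day 3, and 19.6% higher at 12.5% on day 6. WIPI1 reads the lipid mark on the growing membrane (chromosome 17, 68420948 to 68457513). On day 3 WIPI1 measured 223 and 141 at 100%, then 182, 177 and 208 at 50%, then 254, 192 and 316 at 25%, then 128, 147 and 208 at 12.5%, then 111, 77.3 and 75.8 at 0%. Its day 6 values were 271, 198 and 143 at 100%, then 180.3, 256 and 189 at 50%, then 216, 192 and 171 at 25%, then 190.5 and 218 at 12.5%. The 3 libraries at 0% were below all others of the series, and replicate 1 at 100% was far above replicate 3. WIPI1 fell 2.04-fold at 0% (log2 -1.03, SE 0.26, adjusted p = 0.00334), and without replicate 1 of 100% the difference was -0.7 (adjusted p = 0.125). Its exons overlap those of ARSG on the other strand.

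WIPI2, its relative that recruits the conjugation machinery, lay between 2172 and 3074 and was not called against 100%. ATG2A, a lipid transfer protein, fell at 25% on day 3 (log2 -0.42, SE 0.082, adjusted p = 0.000388) and rose at 12.5% on day 6 (log2 0.33, SE 0.082, adjusted p = 0.00345). ATG9A, the membrane protein of the vesicles that seed the structure, was 0.28 at 0% (adjusted p = 0.0262). This call was lost without replicate 3 of 100% (0.21, adjusted p = 0.247), replicate 1 of 0% (0.22, adjusted p = 0.119), and also without replicate 3 of 0% (0.26, adjusted p = 0.0653). ATG3, ATG5 and ATG7, enzymes and a subunit of the conjugation system, were called in no comparison against 100%, with log2 differences at 0% of 0.05 (SE 0.087), 0.54 (SE 0.34) and 0.29 (SE 0.18). With each library rescaled to the same total ATG3 was called at 25% on day 3 (0.27, adjusted p = 0.0112), and when the fit held just the groups compared ATG5 was called at 0% (0.54, adjusted p = 0.0494). ATG16L1, which places the conjugation reaction on the membrane, was higher at 25% on day 6 alone (log2 0.60, SE 0.15, adjusted p = 0.00545). It was 0.35 at 12.5% on day 6 and -0.26 at 0% on day 3, and omitting the 3 libraries that lay apart left 0.41 (adjusted p = 0.162) at 25%.

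The ATG8 family rose together: all 4 listed members (GABARAP, GABARAPL1, GABARAPL2 and MAP1LC3B) were higher at 25%, 12.5% and 0% on day 3, and 3 of the 4 at 12.5% on day 6. The shares of genes with a mean of at least 100 called higher were 17.1%, 25.3% and 24.8% on day 3. At 12.5% on day 6 the share was 19.6%. These small ubiquitin-like proteins are coupled to the autophagosomal membrane and bind cargo receptors. GABARAPL1 (chromosome 12, 10212458 to 10223130) measured, on day 3, 711 and 777 at 100%, then 704, 724 and 699 at 50%, then 1032, 1216 and 1241 at 25%, then 1237, 1208 and 1278 at 12.5%, then 1393, 1434 and 1466 at 0%. The day 6 libraries held 818, 784 and 726 at 100%, then 777, 715 and 672 at 50%, then 1304, 1316 and 1219.6 at 25%, then 1369 and 1357 at 12.5%. No library at 25% or less was under 1032, and none at 50% or 100% was over 818. GABARAPL1 was 1.56-fold, 1.67-fold and 1.92-fold higher at 25%, 12.5% and 0% on day 3 (at 0% log2 0.94, SE 0.087, adjusted p = 2.22e-09). On day 6 it was 1.65-fold higher at 25% (log2 0.72, SE 0.078, adjusted p = 1e-07) and 1.76-fold higher at 12.5% (log2 0.81, SE 0.087, adjusted p = 7.97e-08).

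MAP1LC3B, the LC3 protein most used to mark autophagosomes (chromosome 16, 87383995 to 87404779), measured, on day 3, 1406 and 1497 at 100%, then 1504, 1544 and 1605 at 50%, then 2027, 2084 and 2097 at 25%, then 2431, 2542 and 2519.7 at 12.5%, then 2441, 2296 and 2528 at 0%. Values on day 6 were 1523, 1471 and 1279 at 100%, then 1492, 1642 and 1442 at 50%, then 1923, 1787 and 1991 at 25%, then 2122 and 2198 at 12.5%. Libraries at 25% or less did not overlap with those at 50% or 100% on either day, and on each day those at 12.5% were above those at 25%. MAP1LC3B was 1.72-fold higher at 12.5% on day 3 (log2 0.78, SE 0.077, adjusted p = 1.25e-08) and 1.67-fold higher at 0% (log2 0.74, SE 0.077, adjusted p = 2.02e-08). On day 6 it was 1.34-fold higher at 25% (log2 0.42, SE 0.069, adjusted p = 5.18e-05) and 1.52-fold higher at 12.5% (log2 0.60, SE 0.077, adjusted p = 1.27e-06). Reads of MAP1LC3B and its near-identical copy MAP1LC3B2 may be shared by the authors' counting, and the copy was listed at no more than 5.31 in any library.

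GABARAPL2 (chromosome 16, 75566351 to 75577881) measured, on day 3, 1264 and 1154 at 100%, then 1428, 1239 and 1302 at 50%, then 1779, 1648 and 1705 at 25%, then 1923, 1710.4 and 1684 at 12.5%, then 1731, 1764 and 1712 at 0%. Day 6 libraries measured 1176, 1157 and 1089 at 100%, then 1122, 1153 and 1151 at 50%, then 1509, 1392 and 1345 at 25%, then 1418 and 1403 at 12.5%. Its libraries at 25% or less were above those at 50% and 100% of the same day. GABARAPL2 rose by about the same factor at every level on day 3, 1.42-fold, 1.46-fold and 1.44-fold (at 0% log2 0.52, SE 0.078, adjusted p = 6.11e-06). The rise was 1.24-fold at 25% and 1.24-fold at 12.5% on day 6 (at 12.5% log2 0.31, SE 0.078, adjusted p = 0.00456). GABARAP rose by log2 0.30, 0.36 and 0.47 on day 3 and by 0.25 at 25% on day 6. The calls of GABARAP at 25% and 12.5% on day 3 ended without replicate 1 of 100% (0.27 and 0.33, adjusted p = 0.173 and 0.0675). Its call at 25% also ended without replicate 3 of 100% (0.32, adjusted p = 0.0965), and also without replicate 3 of 25% (0.23, adjusted p = 0.15). On day 6 the GABARAP call ended without replicate 2 of 25% (0.14, adjusted p = 0.296), replicate 1 of 100% (0.21, adjusted p = 0.161), and also without replicate 3 of 100% (0.26, adjusted p = 0.0798).

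**Figure D3:**
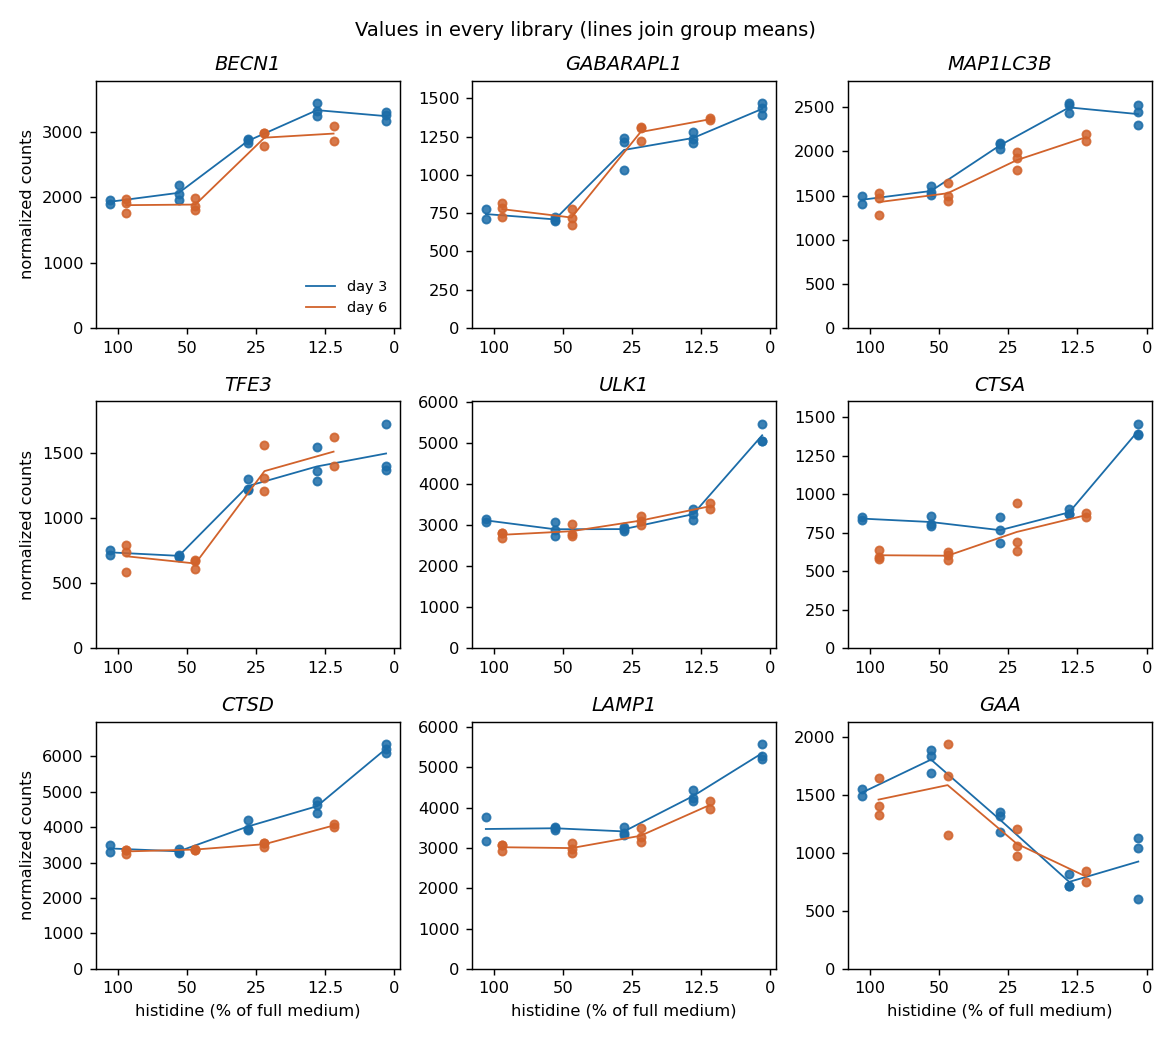
Normalized counts of single members in every library, by histidine level, for day 3 (blue) and day 6 (orange), with lines that join the group means. BECN1, GABARAPL1, MAP1LC3B and TFE3 step up between 50% and 25% on both days, ULK1, CTSA, CTSD and LAMP1 are highest at 0%, and GAA is lower at 12.5% than at 100%.

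Of the cargo receptors, NBR1 was called against 100% on day 3, lower at 25% and higher at 0%, and SQSTM1 was not called. SQSTM1 (p62) brings ubiquitinated cargo to ATG8 proteins and is itself broken down by autophagy. On day 3 SQSTM1 measured 1438 and 1229 at 100%, then 1166, 1382 and 1164 at 50%, then 1354, 1217 and 1388 at 25%, then 1523, 1371 and 1386 at 12.5%, then 1404, 1213 and 1450.5 at 0%. On day 6 this gene measured 1403, 1328 and 1356 at 100%, then 1202, 1177 and 1157 at 50%, then 1154, 1459 and 1352 at 25%, then 1504 and 1851 at 12.5%. On day 3 the groups overlapped at every level, and on day 6 both libraries at 12.5% were above all 3 at 100%. SQSTM1 was not called in any comparison against 100%, with a log2 difference of 0.02 (SE 0.11) at 0% on day 3 and 0.29 (SE 0.11, adjusted p = 0.0534) at 12.5% on day 6. The latter was called without replicate 1 of 12.5% (0.44, adjusted p = 0.0216), when the fit held the compared groups only (0.29, adjusted p = 0.041) and with a minimum value of 50 (0.29, adjusted p = 0.0373). NBR1, a receptor with a similar domain plan, was -0.24 at 25% (adjusted p = 0.0121) and 0.18 at 0% on day 3 (adjusted p = 0.0447). Both calls ended without replicate 1 of 100% (-0.23 and 0.19, adjusted p = 0.0873 and 0.111) and without replicate 3 (-0.25 and 0.17, adjusted p = 0.0554 and 0.19), and that at 0% without any 1 library at 0% too.

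Of the 3 MiT/TFE factors only TFE3 was called against 100%. It had the largest rise among called members at 25%, 12.5% and 0% on day 3 and at 25% and 12.5% on day 6. At 25% on day 6 the difference of MITF, not called, was 0.98. TFE3 (chromosome X, 49028726 to 49043486) measured, on day 3, 758 and 718 at 100%, then 716, 712 and 705 at 50%, then 1223, 1302 and 1217 at 25%, then 1548, 1285 and 1362 at 12.5%, then 1725, 1400.0 and 1368 at 0%. Its day 6 values were 797, 738 and 589 at 100%, then 676, 609 and 672 at 50%, then 1311, 1562 and 1213 at 25%, then 1403 and 1621 at 12.5%. The 14 libraries at 25%, 12.5% or 0% lay between 1213 and 1725, and the 11 at 50% or 100% between 589 and 797. On day 3 TFE3 was 1.69-fold higher at 25% (log2 0.76, SE 0.12, adjusted p = 3.96e-05) and 1.89-fold higher at 12.5% (log2 0.92, SE 0.12, adjusted p = 1.64e-06). At 0% it was 2.02-fold higher (log2 1.01, SE 0.12, adjusted p = 2.24e-07). On day 6 the rise was 1.93-fold at 25% (log2 0.95, SE 0.11, adjusted p = 2.89e-07) and 2.15-fold at 12.5% (log2 1.10, SE 0.12, adjusted p = 1.4e-07).

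TFEB, the family member best known for control of lysosomal genes, measured, on day 3, 216 and 209 at 100%, then 222, 197 and 229 at 50%, then 240.4, 308 and 281 at 25%, then 222, 239 and 234 at 12.5%, then 178, 173 and 188 at 0%. The day 6 libraries held 244, 216 and 239.5 at 100%, then 228, 236 and 274 at 50%, then 240.1, 289 and 210.4 at 25%, then 204 and 194 at 12.5%. On day 3 the libraries at 25% were above both at 100% and those at 0% were below them, and on day 6 those at 12.5% were below those at 100%. The log2 differences of TFEB were 0.37 at 25% (SE 0.15, adjusted p = 0.0898), 0.12 at 12.5% and -0.24 at 0% on day 3 (SE 0.15, adjusted p = 0.245), and -0.23 at 12.5% on day 6, and none was called. The value at 25% was called with each library rescaled to the same total (0.45, adjusted p = 0.0321), without the trend and robust moderation (0.37, adjusted p = 0.0474) and without replicate 1 of 25% (0.47, adjusted p = 0.0481).

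MITF, better known from pigment cells, was low in all but 1 library. On day 3 MITF measured 6.88 and 2.91 at 100%, then 3.70, 5.41 and 9.78 at 50%, then 1.56, 14.6 and 4.27 at 25%, then 2.51, 2.68 and 1.91 at 12.5%, then 2.21, 11.2 and 3.77 at 0%. Values on day 6 were 5.34, 3.90 and 4.28 at 100%, then 2.77, 0 and 5.31 at 50%, then 0, 147 and 7.48 at 25%, then 4.99 and 4.64 at 12.5%. The value of 147 was in replicate 2 of 25% on day 6, the library with heart and muscle markers, and no other library was above 14.6. With all libraries MITF was called in no comparison, and its standard error of 1.2 on the log2 scale at 0% allowed only very large differences to be called. From 50% to 25% on day 6 it was called without replicate 1 of 25% (log2 3.62, adjusted p = 0.00959), which leaves the library at 147 as 1 of 2 at 25%.

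Of the 8 lysosomal hydrolases, 5 rose and 1 fell at 0% on day 3 (62.5% and 12.5%), and 4 rose and 1 fell at 12.5% on day 6 (50% and 12.5%). Among genes with a mean of at least 100, 24.8% rose and 25.3% fell at 0% on day 3. At 12.5% on day 6 it was 19.6% and 18.4%. CTSD, the main aspartic protease of the lysosome (chromosome 11, 1752752 to 1764573), measured, on day 3, 3301 and 3497 at 100%, then 3268, 3299.8 and 3385 at 50%, then 4206, 3940.0 and 3910.5 at 25%, then 4747, 4389 and 4639 at 12.5%, then 6339, 6101 and 6206 at 0%. Day 6 libraries measured 3347, 3249.7 and 3347 at 100%, then 3344, 3368 and 3393 at 50%, then 3553, 3439 and 3565 at 25%, then 4102 and 3992 at 12.5%. On day 3 the libraries of each level from 25% to 0% lay above all those of the level before it, with no overlap. CTSD was 1.18-fold, 1.35-fold and 1.83-fold higher at 25%, 12.5% and 0% (at 0% log2 0.87, SE 0.053, adjusted p = 9.36e-13). On day 6 it was 1.22-fold higher at 12.5% (log2 0.29, SE 0.053, adjusted p = 0.000205) and not called at 25% (log2 0.09).

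CTSA, a serine carboxypeptidase that also shields the hydrolases GLB1 and NEU1 from breakdown (chromosome 20, 45890144 to 45898820), measured, on day 3, 830.5 and 853 at 100%, then 791, 808 and 859 at 50%, then 765, 682 and 853 at 25%, then 872, 872 and 903 at 12.5%, then 1386, 1393 and 1456 at 0%. On day 6 this gene measured 590.3, 639.9 and 582 at 100%, then 628, 602 and 573 at 50%, then 633, 941 and 690.5 at 25%, then 876 and 851 at 12.5%. On day 3 the libraries at 12.5% lay just above those at 100% and the libraries at 0% far above them. On day 6 both libraries at 12.5% were above those at 100%, while at 25% replicate 2, the library with heart and muscle markers, was far above the others. CTSA was 1.68-fold higher at 0% (log2 0.75, SE 0.12, adjusted p = 1.23e-05) and 1.43-fold higher at 12.5% on day 6 (log2 0.52, SE 0.12, adjusted p = 0.0016). At 25% on day 6 it was called at 0.30 (adjusted p = 0.0409). Without replicate 2 of 25% this was 0.13 (adjusted p = 0.381), without replicate 1 of 100% 0.29 (adjusted p = 0.108), and without replicate 3 of 100% 0.27 (adjusted p = 0.126). CTSA exons overlap those of NEURL2 and PLTP on the other strand.

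HEXA, a subunit of the beta-hexosaminidases that degrade gangliosides (chromosome 15, 72340919 to 72376476), measured, on day 3, 808 and 829 at 100%, then 737, 690.0 and 811 at 50%, then 924, 959 and 960.2 at 25%, then 1004, 1217 and 1135 at 12.5%, then 1186, 1512 and 1649 at 0%. Its day 6 values were 686, 990.5 and 783 at 100%, then 879.6, 840.1 and 820.2 at 50%, then 852, 817 and 830.3 at 25%, then 1008 and 1004 at 12.5%. All libraries at 25%, 12.5% and 0% on day 3 were above both at 100%, and on day 6 those at 12.5% were just above the highest at 100%, which had a wide range. HEXA was 1.36-fold higher at 12.5% (log2 0.45, SE 0.13, adjusted p = 0.00826) and 1.75-fold higher at 0% on day 3 (log2 0.81, SE 0.13, adjusted p = 1.04e-05). At 12.5% on day 6 its difference of 0.31 was not called (adjusted p = 0.0785), and without replicate 2 of 100% it was called at 0.46 (adjusted p = 0.00733). The day 3 call at 12.5% ended without replicate 1 of 100% (0.43, adjusted p = 0.0661).

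CTSB, a cysteine cathepsin, rose at every level from 25% to 0% on day 3, from 1509.9 ± 95.6 (SD, n = 2) at 100% to 2340.3 ± 137 (SD, n = 3) at 25%, 2222 ± 71.5 (SD, n = 3) at 12.5% and 1857 ± 64.7 (SD, n = 3) at 0%. Its log2 differences were 0.63, 0.56 and 0.30 (adjusted p = 4.7e-07, 1.9e-06 and 0.00259), and 0.27 and 0.29 on day 6. The call at 0% ended without replicate 3 of 100% (0.23, adjusted p = 0.0716) and that at 12.5% on day 6 without replicate 2 of 12.5% (0.28, adjusted p = 0.0549). NEU1, a sialidase, was higher at 0% on day 3 (log2 0.46, SE 0.14, adjusted p = 0.013), a call that ended without replicate 3 of 100% (0.37, adjusted p = 0.153). GLA, an alpha-galactosidase, lay between 104 and 255 and was not called against 100%, except at 25% on day 6 when replicate 3 of 25% was left out (-0.57, adjusted p = 0.0333).

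CTSZ, another cysteine cathepsin (chromosome 20, 58995185 to 59007247), measured, on day 3, 293 and 298 at 100%, then 251, 287 and 281 at 50%, then 291, 154 and 302 at 25%, then 206, 174 and 238 at 12.5%, then 207, 232 and 204 at 0%. The day 6 libraries held 228, 271 and 208 at 100%, then 206, 206 and 287 at 50%, then 293, 344 and 271 at 25%, then 369 and 426 at 12.5%. At 12.5% and 0% on day 3 all libraries were below those at 100%, and at 12.5% on day 6 both were above all 3 at 100%. CTSZ was 1.69-fold higher at 12.5% on day 6 (log2 0.76, SE 0.22, adjusted p = 0.0115), and its differences on day 3, -0.53 at 12.5% (adjusted p = 0.0743) and -0.46 at 0% (adjusted p = 0.113), were not called. With the library number modulo 8 as a factor both were called (-0.58 and -0.82, adjusted p = 0.048 and 0.0362). The day 6 call ended without replicate 3 of 100% (0.67, adjusted p = 0.0502) and without replicate 2 of 12.5% (0.65, adjusted p = 0.136).

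GAA, the acid alpha-glucosidase that degrades glycogen in the lysosome (chromosome 17, 80101556 to 80119879), went the other way. On day 3 GAA measured 1548 and 1487 at 100%, then 1888, 1832 and 1687 at 50%, then 1319, 1179 and 1353 at 25%, then 715, 711 and 821 at 12.5%, then 1129, 602 and 1041 at 0%. Values on day 6 were 1403, 1322 and 1648 at 100%, then 1149, 1665 and 1934 at 50%, then 1208, 1054 and 971 at 25%, then 747 and 844 at 12.5%. All libraries at 25%, 12.5% and 0% on day 3 were below both at 100%, with replicate 2 at 0% the lowest, and on day 6 all at 25% and 12.5% were below all 3 at 100%. GAA was 2.03-fold lower at 12.5% on day 3 (log2 -1.02, SE 0.21, adjusted p = 0.000967) and 1.7-fold lower at 0% (log2 -0.77, SE 0.21, adjusted p = 0.00803). It was 1.83-fold lower at 12.5% on day 6 (log2 -0.87, SE 0.21, adjusted p = 0.00474). The call at 0% ended without replicate 1 of 100% (-0.74, adjusted p = 0.0595) and when the fit held the compared groups only (-0.77, adjusted p = 0.148). That on day 6 ended without replicate 1 of 12.5% (-0.78, adjusted p = 0.0644).

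Of the 6 genes of the lysosomal membrane and its proton pump, 5 rose at 0% on day 3 (83.3%) and 3 at 12.5% on day 6 (50%), with none lower. Among genes with a mean of at least 100 the shares that rose were 24.8% and 19.6%. LAMP1, an abundant glycoprotein that lines the lysosomal membrane (chromosome 13, 113297241 to 113323672), measured, on day 3, 3185 and 3757 at 100%, then 3520.5, 3490.2 and 3458 at 50%, then 3332, 3369 and 3533 at 25%, then 4450.1, 4165 and 4250.4 at 12.5%, then 5573, 5289.5 and 5201 at 0%. Day 6 libraries measured 3063, 2926 and 3065 at 100%, then 2887, 3118 and 2986 at 50%, then 3268, 3502 and 3140.4 at 25%, then 3976 and 4156 at 12.5%. At 50% and 25% on day 3 the libraries lay between those at 100%, at 12.5% they were above both and at 0% higher still, and on day 6 those at 12.5% were above all others. LAMP1 was 1.24-fold higher at 12.5% (log2 0.31, SE 0.066, adjusted p = 0.000709) and 1.55-fold higher at 0% on day 3 (log2 0.63, SE 0.066, adjusted p = 2.23e-08). It was 1.35-fold higher at 12.5% on day 6 (log2 0.43, SE 0.066, adjusted p = 1.87e-05). The call at 12.5% on day 3 ended without replicate 1 of 100% (0.19, adjusted p = 0.0768).

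LAMP2, the other major lining glycoprotein and the receptor of chaperone-mediated autophagy, rose by 0.19 and 0.31 at 12.5% and 0% on day 3 and by 0.21 at 12.5% on day 6. Without replicate 3 of 100% the day 3 calls of LAMP2 ended (0.1 and 0.22, adjusted p = 0.459 and 0.0594). At 12.5% the LAMP2 calls also ended without any 1 of the 3 restricted libraries on day 3 (lowest adjusted p = 0.0698). On day 6 they ended without replicate 2 or 3 of 100% or either library at 12.5% (lowest adjusted p = 0.0576). MCOLN1, the calcium channel of the lysosome, was 0.33 at 0% (adjusted p = 0.0366), and without replicate 1 of 100% it was 0.13 (adjusted p = 0.589). That call also ended without any 1 library at 0% (adjusted p between 0.0591 and 0.083), and without replicate 3 of 100% MCOLN1 was called at 12.5% (0.48, adjusted p = 0.0154).

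The vacuolar ATPase pumps protons into the lysosome, and its membrane sector (V0) and its ATP-splitting sector (V1) are separate complexes that join. ATP6V0D1, of V0, rose by 0.29 and 0.48 at 12.5% and 0% on day 3 (adjusted p = 0.0385 and 0.000521). Both calls ended without replicate 1 of 100% (0.1 and 0.29, adjusted p = 0.637 and 0.0651), and that at 12.5% without replicate 1 or 3 of 12.5% (adjusted p = 0.119 and 0.0748). ATP6V1A, the catalytic subunit of V1, rose by 0.39 and 0.44 on day 3 (adjusted p = 0.000571 and 0.000109) and by 0.27 and 0.33 at 25% and 12.5% on day 6. The last call ended without replicate 2 of 12.5% (0.31, adjusted p = 0.0572). ATP6V1H, a regulatory subunit of V1, was not called against 100% (0.25 at 0%, adjusted p = 0.144), and with the library number modulo 8 as a factor it was called at 0% (0.41, adjusted p = 0.049).

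LAMP1, CTSA and GAA share a promoter motif. Their promoters were picked to be shown because LAMP1 and CTSA rose while GAA fell in these data. The bases are from RefSeq (GRCh38.p14) on the + strand, which is the sense strand of all 3 genes. Capitals mark CACGTG, the E-box that MiT/TFE factors are known to bind, with its flanking T and A where the site reads TCACGTGA, the core of the motif known as CLEAR. LAMP1 and GAA are shown from 250 bases to 1 base before the RefSeq start (chr13:113296989-113297238 and chr17:80101331-80101580), and CTSA from 46 to 17 bases before it (chr20:45891289-45891318). The RefSeq starts of CTSA and GAA lie inside the GENCODE spans given above, which reach further upstream, so the CTSA stretch and the last bases of the GAA stretch are within those gene spans.
LAMP1: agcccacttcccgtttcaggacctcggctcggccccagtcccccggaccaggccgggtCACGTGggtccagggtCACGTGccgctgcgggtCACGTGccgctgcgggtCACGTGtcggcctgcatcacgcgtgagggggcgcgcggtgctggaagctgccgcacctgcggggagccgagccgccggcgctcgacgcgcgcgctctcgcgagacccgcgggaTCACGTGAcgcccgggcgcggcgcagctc
GAA: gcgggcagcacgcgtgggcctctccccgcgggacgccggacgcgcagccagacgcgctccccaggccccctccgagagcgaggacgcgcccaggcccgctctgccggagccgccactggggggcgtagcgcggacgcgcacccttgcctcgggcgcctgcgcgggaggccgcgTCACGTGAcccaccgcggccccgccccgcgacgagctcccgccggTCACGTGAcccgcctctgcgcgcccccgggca
CTSA: ctgtCACGTGgcgccggagtTCACGTGAct
The LAMP1 window held 5 E-boxes, 1 of them a CLEAR core, GAA held 2 E-boxes that were both CLEAR cores, and CTSA 2 with 1 CLEAR core. Of 27305 promoters searched over the 250 bases before the start on both strands, 6.49% held CACGTG and 0.89% held TCACGTGA, and every TCACGTGA contains a CACGTG. Of the 30 members with a promoter entry, 9 held CACGTG (30%), namely ATG14, ATG3, ATP6V0D1, CTSA, CTSD, GAA, LAMP1, MCOLN1 and NEU1. An entry is the window before 1 RefSeq start per gene. For some members, such as ATG5, BECN1, ATG16L1 and MAP1LC3B, that window lies inside the GENCODE span and may not be the main promoter. TCACGTGA was in 5 of the 30 (16.7%), namely ATP6V0D1, CTSA, GAA, LAMP1 and MCOLN1. The members were listed as autophagy and lysosome genes, which MiT/TFE factors are known to bind, so these shares are not independent of the list. At 0% on day 3, 4 of these 5 were higher and GAA was lower. Of all members 54.1% were higher there, as were 24.8% of genes with a mean of at least 100. MCOLN1, among the 4, was not called with no filter (log2 0.33, adjusted p = 0.0725). With each library rescaled to the same total it was not called either (0.3, adjusted p = 0.0535). The letters TGATGNAA, which ATF4 is known to bind in amino acid response elements, were in 3.19% of all promoters and in 0 of the 30. A match describes letters in a window and is not evidence of binding.

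The levels at which members changed were then set side by side for neighbouring histidine levels. From 50% to 25% on day 3, 9 members rose and 9 fell, where 11.4% of all genes rose and 12.5% fell, and 18.6% and 22.1% of those with a mean of at least 100. The balance depended on the scaling. With each library rescaled to the same total, which moved the median of all genes from 0.01 to 0.11, 13 members rose and 1 fell, where 16% and 9% of all genes did, and with quantile normalization it was 11 and 6. Of the 9 falls only that of NBR1 was called after rescaling to the same total, and ATG3, GABARAP, TFEB and NEU1 were added to the rises. The rises included TFE3 (log2 0.81, SE 0.11, adjusted p = 2.27e-06), GABARAPL1 (log2 0.71, SE 0.078, adjusted p = 8.94e-08), CTSB (log2 0.53, SE 0.067, adjusted p = 9.42e-07) and BECN1 (log2 0.47, SE 0.059, adjusted p = 8.68e-07), besides MAP1LC3B, GABARAPL2, CTSD, HEXA and ATG13. The falls were in RB1CC1, ATG14, UVRAG, WIPI2, ATG2A, NBR1, GLA, MCOLN1 and ATP6V1H, between -0.21 for WIPI2 and -0.55 for GLA. Of the 9 falls only that of NBR1 (log2 -0.30, SE 0.061, adjusted p = 0.000479) was called with every library left out in turn. Of the rises, ATG13 (log2 0.12 without replicate 1 of 50%, adjusted p = 0.166, and 0.13 without replicate 1 of 25%, adjusted p = 0.153) and HEXA (0.29 without replicate 2 of 50%, adjusted p = 0.107, and 0.34 without replicate 1 of 50%, replicate 2 of 25% or replicate 3 of 25%) lost their calls. The count of 18 was 11 without replicate 1 of 50% or replicate 3 of 25%. From 25% to 12.5%, 8 rose (5.41% of all genes and 10.4% of those with a mean of at least 100) and 1 fell (2.81% and 4.2%), with ATP6V1H (0.54) and MCOLN1 (0.43) the largest rises and GAA (-0.78) the fall. GAA was not called without replicate 3 of 25% (-0.74, adjusted p = 0.0553) or without replicate 1 (-0.75, adjusted p = 0.0522) or 2 of 12.5% (-0.74, adjusted p = 0.0502). MCOLN1 was not called without replicate 2 of 25% (0.4, adjusted p = 0.06). Rescaling to the same total left 3 rises and 1 fall in this step, and quantile normalization 4 and 1. The count of 9 was 5 without replicate 2 or 3 of 25% or replicate 1 of 12.5%.

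From 12.5% to 0% on day 3, 8 members rose (8.5% of all genes and 14.2% of those with a mean of at least 100) and 2 fell (12.5% and 21.3%). With each library rescaled to the same total it was 8 and 4, WIPI2 and TFEB being the added falls. The rises were in ATG14 (log2 0.80, SE 0.15, adjusted p = 0.000207), CTSA (log2 0.68, SE 0.1, adjusted p = 1.81e-05), ULK1 (log2 0.67, SE 0.057, adjusted p = 8.9e-10) and CTSD (log2 0.44, SE 0.048, adjusted p = 8.07e-08), besides HEXA, LAMP1, NBR1 and ATG2A. WIPI1 (-0.85) and CTSB (-0.26) fell. WIPI1 was not called without replicate 3 of 12.5% (-0.65, adjusted p = 0.0788), nor ATG2A without replicate 1 of 0% (0.21, adjusted p = 0.0697). HEXA lost its call without replicate 1 of 12.5% (0.29, adjusted p = 0.115), replicate 2 of 0% (0.33, adjusted p = 0.0806), and also without replicate 3 of 0% (0.26, adjusted p = 0.14). BECN1, GABARAPL1, GABARAPL2, MAP1LC3B and TFE3 were not called in this step, with log2 differences of -0.04, 0.21, -0.03, -0.05 and 0.10. By these steps BECN1, GABARAPL1, GABARAPL2, MAP1LC3B and TFE3 had their largest rise from 50% to 25% histidine, and ULK1 and CTSA from 12.5% to 0%, a sorting made after the values were seen.

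On day 6, 8 members rose from 50% to 25% and 0 fell. Of all genes 10.6% rose and 10.3% fell, and of those with a mean of at least 100 it was 19% and 16.9%, so the members' share of rises (21.6%) was near that background. Quantile normalization gave 7 rises and 2 falls, of NBR1 and GAA. The 8 were TFE3 (log2 1.05, SE 0.11, adjusted p = 4.6e-08), GABARAPL1 (log2 0.83, SE 0.078, adjusted p = 9.5e-09), BECN1 (log2 0.63, SE 0.059, adjusted p = 1.14e-08), ATP6V1A (0.34), MAP1LC3B (0.32), GABARAPL2 (0.31), CTSA (0.31) and CTSB (0.19). From 25% to 12.5% on day 6 LAMP1 alone rose (log2 0.30, SE 0.066, adjusted p = 0.0208), where 0.204% of all genes rose and 0.67% fell. Of those with a mean of at least 100, 0.389% rose and 1.25% fell. The LAMP1 call was lost without replicate 1 (0.29, adjusted p = 0.0594) or 3 of 25% (0.26, adjusted p = 0.0601) and without either library at 12.5% (0.33 and 0.27, adjusted p = 0.108 and 0.304). Without replicate 2 of 25% CTSA was 0.14 (adjusted p = 0.335), and CTSB was not called without any 1 library of the 2 groups other than replicate 2 of 50% (adjusted p between 0.0614 and 0.206). CTSA was also not called without replicate 2 (0.31, adjusted p = 0.0756) or 3 of 50% (0.27, adjusted p = 0.122).

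The 2 days share no libraries, but both were in 1 fit with 1 estimate of the spread for each gene. Calls on the 2 days are therefore not independent tests. At 12.5%, 11 members were higher on both days, 78.6% of the 14 on day 3 and 73.3% of the 15 on day 6, and GAA was lower on both. Of the genes with a mean of at least 100 that were higher on day 3, 56.8% were also higher on day 6, and of those higher on day 6, 73.2% were higher on day 3 (52.7% and 69.2% over all genes). The members' 78.6% was above the 56.8% of those genes, and their 73.3% was near the 73.2%. The 11 were ATG13, BECN1, GABARAPL1, GABARAPL2, MAP1LC3B, TFE3, CTSB, CTSD, LAMP1, LAMP2 and ATP6V1A. At 25%, 7 were higher on both days, 77.8% of 9 and 63.6% of 11, where the shares were 59.8% and 50.4% among genes with a mean of at least 100. The effect itself differed between days for ATG2A, ATG14, CTSZ and CTSB. For ATG2A at 25% the effect was higher on day 6 by 0.58 (SE 0.11, adjusted p = 0.00133), with -0.42 on day 3 and 0.16 on day 6. At 25% 1 member differed in each direction, where 2.71% of all genes had a higher effect and 2.01% a lower one on day 6. Among genes with a mean of at least 100 these shares were 5.31% and 3.54%. At 12.5% 3 had a higher effect and 0 a lower one, where 1.28% and 2.36% of all genes did, and 2.32% and 4.41% of those with a mean of at least 100. Rescaling to the same total gave 1 higher and 3 lower at 25%, the added 2 being ATG3 and CTSD, and quantile normalization 1 and 2. None differed for 50%, where the shares were 0.00435% and 0%.

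**Figure D4:**
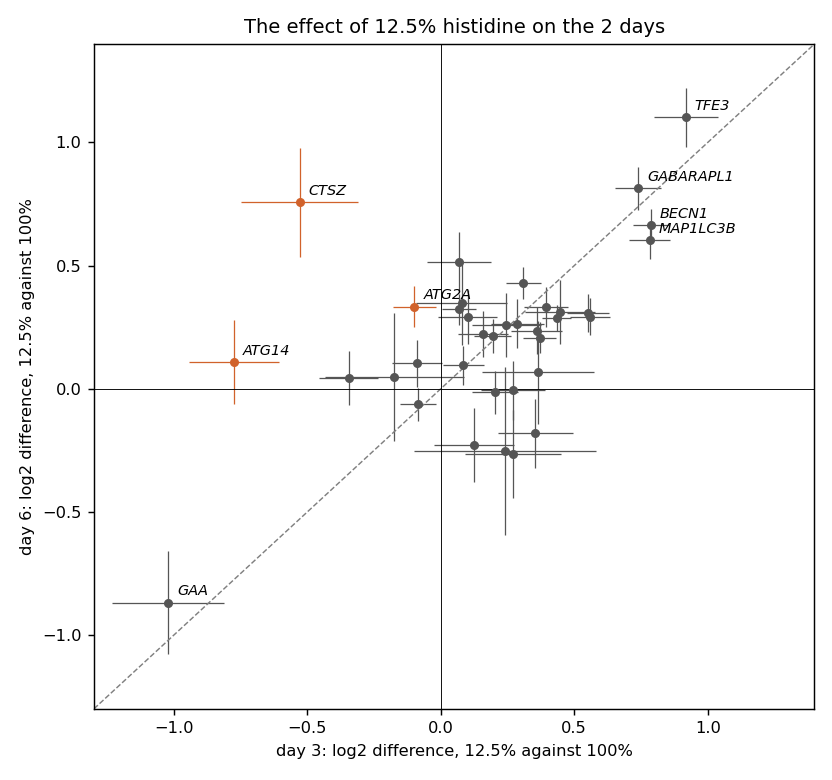
Log2 difference from 100% histidine at 12.5% on day 3 (horizontal axis) and day 6 (vertical axis), 1 point for each member except MITF, with bars of 1 standard error and a dashed line of equal effect. TFE3, GABARAPL1, BECN1 and MAP1LC3B lie high on both axes and GAA low on both, and the orange points, CTSZ, ATG14 and ATG2A, are those whose effect differed between days.

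In full histidine (100%) 3 members were lower on day 6 than on day 3 and 0 were higher, where 5.73% of all genes were lower and 2.93% higher. Among genes with a mean of at least 100, 11.2% were lower, above the members' 8.11%. The 3 were CTSA (log2 -0.48, SE 0.12, adjusted p = 0.00891), UVRAG (log2 -0.40, SE 0.11, adjusted p = 0.0189) and ATG2A (log2 -0.30, SE 0.082, adjusted p = 0.0179). The calls of all 3 ended without replicate 3 of 100% on day 3 (adjusted p between 0.107 and 0.118), and those of UVRAG and ATG2A also without replicate 1 (-0.37 and -0.28, adjusted p = 0.108 and 0.106). The call of UVRAG further ended without replicate 2 of day 6 (-0.34, adjusted p = 0.0802) and that of ATG2A without replicate 1 of day 6 (-0.28, adjusted p = 0.0704). Without replicate 1 of day 3, WIPI2 (-0.32), LAMP1 (-0.32) and ATP6V0D1 (-0.43) were called lower on day 6. Rescaling each library to the same total moved the median of all genes in this comparison by 0.14 and left UVRAG at -0.28 (adjusted p = 0.124) and ATG2A at -0.19 (adjusted p = 0.196). It also made ATG13 (0.23, adjusted p = 0.0125), NBR1 (0.27, adjusted p = 0.00516) and CTSB (0.29, adjusted p = 0.0205) higher on day 6, so that 3 members were higher and 1 lower. Quantile normalization gave 3 higher, of the same 3 genes, and 2 lower, so the balance of directions differed between scalings.

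Other genes of the same machinery were counted from 6 further lists, chosen like the members with earlier results of these data known. Of the 136 genes tested in these lists 120 had a mean of at least 100. The shares of such genes called were 24.8% higher and 25.3% lower at 0% on day 3 and 19.6% and 18.4% at 12.5% on day 6. Of 19 tested other subunits of the proton pump, 10 rose and 1 fell at 0% on day 3 (52.6% and 5.26%, median log2 difference 0.56), and 7 rose and 1 fell at 12.5% on day 6 (median 0.16). Those with the smallest p at 0% were ATP6V1G1 (0.85), ATP6V0E1 (0.80) and ATP6AP1 (0.70), and the 1 that fell on both days was ATP6V1F (-0.39 and -0.76). Of 19 other receptors, regulators and fusion factors, 9 rose and 3 fell at 0% (47.4% and 15.8%, median 0.26) and 8 rose and 3 fell at 12.5% on day 6 (median 0.24). TOLLIP (0.80), CALCOCO2 (0.54), a receptor for bacteria and mitochondria, and the fusion SNARE YKT6 (0.54) rose. The mitophagy receptors BNIP3 (-0.85 and -1.09) and BNIP3L (-0.40 and -0.49) and the endoplasmic reticulum receptor RETREG1 (-0.54 and -0.51) fell on both days.

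The other lists also had calls in both directions at 0% on day 3. Of 20 other core autophagy genes, 4 rose and 3 fell at 0% on day 3 (20% and 15%, median -0.05) and 2 rose and 0 fell at 12.5% on day 6 (median 0.11). WDR45B, a relative of the WIPI proteins, rose on both days (0.63 and 0.40). Of 36 other hydrolases and activators, 11 rose and 6 fell at 0% (30.6% and 16.7%, median 0.02) and 5 rose and 9 fell at 12.5% on day 6 (median 0). SMPD1, the acid sphingomyelinase, rose on both days (1.14 and 0.71), and LGMN, an asparaginyl protease, fell on both (-1.83 and -2.14), with CTSV at -2.83 and CTSF at -1.71 at 0%. Of 25 other genes of the lysosomal membrane and transport, 7 rose and 5 fell at 0% (28% and 20%, median 0.08) and 3 rose and 5 fell at 12.5% on day 6 (median -0.09). M6PR, a receptor that carries hydrolases to the lysosome, rose on both days (0.51 and 0.32), and LAPTM4B fell on both (-1.03 and -0.80).

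Of 17 genes that control mTORC1 at the lysosome, 6 rose and 3 fell at 0% on day 3 (35.3% and 17.6%, median 0.05) and 3 rose and 0 fell at 12.5% on day 6 (median 0.12). LAMTOR1, which anchors the Ragulator complex, rose by 0.79 and 0.40 and RRAGB, a Rag GTPase, by 0.72 and 0.45, while MTOR itself was lower at 0% (log2 -0.38). SLC38A9, the lysosomal arginine sensor, rose at 0% on day 3 (log2 0.63, SE 0.13, adjusted p = 0.000361). SLC15A4, the lysosomal transporter of histidine and small peptides, was not called, with 0.38 at 0% on day 3 (SE 0.16, adjusted p = 0.0775) and -0.33 at 12.5% on day 6 (adjusted p = 0.162).

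**Figure D5:**
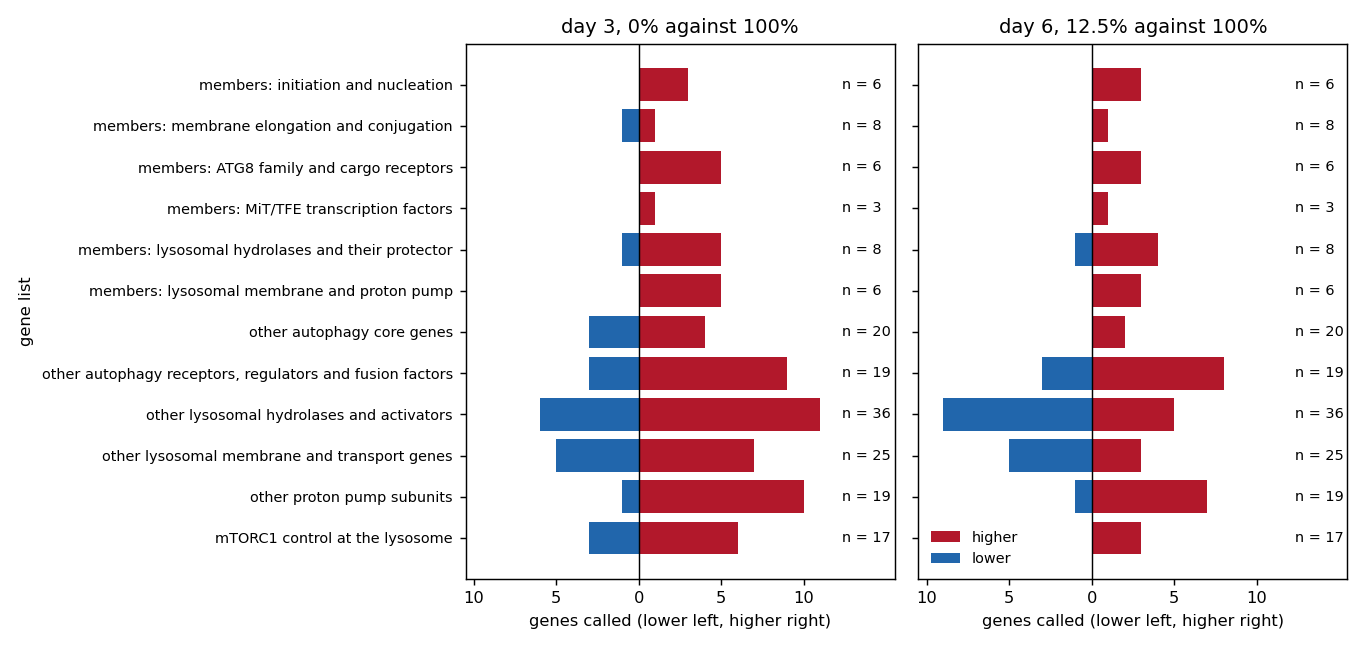
Number of genes called higher and lower at 0% on day 3 and at 12.5% on day 6 in each role of the members and in each of the 6 further lists. At 0% on day 3 rises outnumber falls in every list except membrane elongation and conjugation (1 and 1), and the other hydrolases have 11 and 6. At 12.5% on day 6 falls outnumber rises among the other hydrolases (5 rises, 9 falls) and other lysosomal membrane and transport genes (3 rises, 5 falls). In every other list rises outnumber falls on that day. Of genes with a mean of at least 100, 24.8% were higher and 25.3% lower at 0% on day 3. At 12.5% on day 6 it was 19.6% and 18.4%.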

How the data were processed

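RNA was measured in 25 Jurkat libraries. Per the labels' protocols, total RNA was taken up in strand-specific Illumina libraries. The submitters' processing notes name kallisto 0.50.1, DESeq2 1.44.0 and FastQC 0.11.9 and the build GRCh38. What each tool did, which annotation was used and whether counting used strand is not given in the sources used here. Values deposited by the authors are a normalized signal, counts scaled by the authors before deposit. Whether the scaling was per library alone or also differed between genes could not be told. Of values worth up to 20 reads, only 55.7% to 75.5% per library came within 0.05 of a whole read. Reads were therefore not recovered, no count model was run and the depth is unknown. No 2 libraries were identical (0 pairs).

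The 22994 genes that reached a value of 10 in 2 or more libraries were tested with limma 3.58.1 (R 4.3.3, statmod 1.5.0) on log2(value + 1). The fit had 1 mean for each of 9 groups, an intensity trend and robust moderation. Benjamini-Hochberg adjustment was made per comparison (16 in all), and genes were called at an adjusted p under 0.05. The script was tested on simulated data. The members and the lists of other genes were chosen with earlier results of these data known. Values in every library are given for members called at 0% on day 3 or at 12.5% on day 6 with a log2 difference of at least 0.5 in size, and for ULK1, BECN1, MAP1LC3B, SQSTM1, TFEB, TFE3, MITF, LAMP1 and CTSD. Of other lists, up to 3 called genes with the smallest p in each direction are named, with SLC15A4 and SLC38A9. Alternatives were the pseudocount, the minimum value, the scaling, the moderation, the groups in the fit, the replicate number as a block, the library number modulo 8 as a factor, and leaving out each library in turn. The library number is the order in the labels and no stated batch. Coordinates are GENCODE 29 (GRCh38, counted from 1). Promoters were matched by symbol to a set of RefSeq promoters (GRCh38.p14). The set used had entries for 30 of the 37 members, which is not the coverage of RefSeq itself. Some members share exonic positions with other genes, such as BECN1 with PSME3 and CNTD1, SQSTM1 with MRNIP, and HEXA with HEXA-AS1, and their reads cannot be told apart if strand was not used.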

Additional observations from a re-analysis of the deposited data

Results flagged for a closer look

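For 4 members the effect of restriction differed between day 3 and day 6 by limma's test of the difference (Benjamini-Hochberg adjusted over all genes). At 25% histidine ATG2A had an effect on day 6 that was higher by 0.58 on the log2 scale (SE 0.11, adjusted p = 0.00133), with -0.42 on day 3 and 0.16 on day 6. It was called under every alternative tried. At 12.5% the ATG2A difference was 0.43 (adjusted p = 0.0338), and it was lost without any 1 of 9 of the 10 libraries compared (adjusted p between 0.0515 and 0.143), all but replicate 3 of 100% on day 6.

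CTSB at 25% had a smaller effect on day 6, by -0.36 (SE 0.1, adjusted p = 0.0324), with 0.63 on day 3 and 0.27 on day 6. This was lost without replicate 3 of 100% on day 3 (-0.3, adjusted p = 0.19), replicate 3 of 25% on day 3 (-0.32, adjusted p = 0.1), replicate 1 of 100% on day 6 (-0.3, adjusted p = 0.104) or replicate 3 of 25% on day 6 (-0.35, adjusted p = 0.057).

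ATG14 at 12.5% was -0.77 on day 3 and 0.11 on day 6, a difference of 0.88 (SE 0.24, adjusted p = 0.0333). It was lost without replicate 3 of 100% on day 3 (0.71, adjusted p = 0.168), replicate 2 of 12.5% on day 3 (0.67, adjusted p = 0.0744), replicate 1 or 2 of 100% on day 6 (0.84 and 0.89, adjusted p = 0.0737 and 0.0539) or replicate 1 of 12.5% on day 6 (0.71, adjusted p = 0.208).

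CTSZ at 12.5% was -0.53 on day 3 and 0.76 on day 6, a difference of 1.29 (SE 0.31, adjusted p = 0.0154). Without replicate 1 of 100% on day 3 it was 1.3 (adjusted p = 0.0614) and without replicate 2 of 12.5% on day 6 it was 1.18 (adjusted p = 0.0993).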

How the results depend on the processing

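In the comparisons against 100% no direction of a named member's call reversed under any alternative, and no member was called at 50% under any. None of the called differences between days reversed either. Neighbouring levels and day 6 against day 3 at 100% were not checked for reversal. Leaving out each library in turn, the count of members called ranged from 9 to 14 at 25% on day 3 (13 with all libraries), 12 to 16 at 12.5% (17), 17 to 20 at 0% (22), 8 to 12 at 25% on day 6 (11) and 11 to 16 at 12.5% (16). For neighbouring levels it ranged from 11 to 15 from 50% to 25% on day 3 (18), 5 to 8 from 25% to 12.5% (9), 9 to 11 from 12.5% to 0% (10), 6 to 9 from 50% to 25% on day 6 (8) and 0 to 1 from 25% to 12.5% (1). It was 0 to 4 for day 6 against day 3 at 100% (3), 1 to 3 for the difference between days at 25% (2) and 1 to 3 at 12.5% (3). With the library number modulo 8 as a factor the counts were 7 at 25% on day 3, 7 at 25% on day 6, 10 from 50% to 25% and 0 from 25% to 12.5% on day 3, 3 and 0 for these steps on day 6, 1 for day 6 against day 3, and 1 for each difference between days. Rescaling to the same total gave 4 from 25% to 12.5% on day 3 and 4 for the difference at 25%, and quantile normalization gave 5 for that step and 5 for day 6 against day 3. Of the other settings, no filter gave 1 for the difference at 25%, a minimum value of 50 gave 2 from 25% to 12.5% on day 6, no trend or robust moderation gave 0, 1 and 1 for that step and the differences at 25% and 12.5%, and fitting only the compared groups gave 0 for that step and 1 for the difference at 25%. Omitting the 3 day 6 libraries that lie apart, an alternative chosen after seeing the data, gave 5 at 25% and 14 at 12.5% on day 6. The cause was not tested. Calls against 100% that appeared under an alternative, beside those in the report, were UVRAG lower at 0% on day 3 and NBR1 lower at 12.5% on day 3 and 25% on day 6 with another scaling (UVRAG also with a minimum value of 50), ATP6V1A higher at 25% on day 3 after rescaling, NEU1 at 12.5% on day 3 and ATP6V0D1 at 12.5% on day 6 with a minimum value of 50, GAA lower at 25% and GABARAP higher at 12.5% on day 6 with only the compared groups, and GLA lower at 25% on day 6 without replicate 3 of 25%. BECN1, GABARAPL1, GABARAPL2, MAP1LC3B and TFE3 lost no call against 100% under any of these.

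Same-numbered libraries did not in general deviate together (median correlation of deviations 0.0015 over 92 pairs, 1 of them over 0.1). That pair, at 0.192, was replicate 3 of 100% and replicate 3 of 50% on day 6, both among the libraries that lay apart. Their scores on the second principal component were -59.1 and -61.9. Deviations sum to 0 within a group, so the median cannot show whether some groups shared a batch, which was not tested. With the replicate number as a block, 13, 16 and 20 members were called at 25%, 12.5% and 0% on day 3, and 10 and 16 at 25% and 12.5% on day 6. The depth of the libraries is not known, and groups of 2 or 3 limit what differences could be called.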
